A study of Mus musculus with 18 samples.

Results

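The 9 genes described here make up the core of the class I antigen presentation pathway of the mouse: H2-K1, H2-D1, B2m, Psmb8, Psmb9, Psmb10, Tap1, Tap2 and Tapbp. They were found on the arrays by gene name, and the set was drawn up with earlier results of these data known. They were read by 16 non-control probes of 41174 on Agilent 2-colour mouse arrays. All 16 probes passed the filter on dim probes, as did 36965 of all probes, and the 9 genes are 9 of 24967 tested. The series compared induced pluripotent stem cells (iPSC, somatic cells reprogrammed to an embryonic-like state) that lack Dnmt3a and Dnmt3b, the de novo DNA methyltransferases, with control iPSC.

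RNA of 5 kinds was read in 36 channels of 18 arrays. Dnmt3ab-deficient iPSC came from 3 clones, named 8, A6 and B2 (6 channels). The same 3 clones, labelled as having begun to differentiate, gave 12 channels. Control iPSC came from 4 lines, numbered 3 to 6 (12 channels). V6.5 ESC, a mouse embryonic stem cell line, and MEF, mouse embryonic fibroblasts, were each 1 reference RNA (3 channels each). All iPSC had been kept on irradiated MEF feeders and were passaged on gelatin, without fresh feeders, before RNA was taken. Each clone or line is 1 cell line, and strain and animal of origin are not given in the sources used here. P-values of comparisons over lines thus measure only the spread between these lines, and those against V6.5 ESC and MEF only that between arrays. Per the labels, the differentiating clones and both reference RNAs were outside the statistical analysis of the authors.

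Class I molecules display peptides from inside the cell to CD8 T cells and are read by natural killer cells. In this pathway proteasomes cut cytosolic proteins, and interferon replaces the catalytic subunits of the constitutive proteasome with Psmb8, Psmb9 and Psmb10 to form the immunoproteasome. Tap1 and Tap2 form the transporter that carries peptides into the endoplasmic reticulum, Tapbp (tapasin) bridges the transporter to empty class I molecules, and a class I molecule is a heavy chain such as H2-K1 or H2-D1 bound to B2m (beta 2 microglobulin). Pluripotent cells are known for low class I expression, which rises on differentiation and under interferon.

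Of the 9 genes, 7 lie on chromosome 17, most of them within the major histocompatibility complex, B2m is on chromosome 2 and Psmb10 on chromosome 8. The sequences below are the bases just before the start of transcription of 4 genes and the whole stretch between the divergent starts of Psmb9 and Tap1. They are shown because class I promoters are known to carry shared elements, and because these CpG-bearing stretches are the kind of sequence on which the missing enzymes act; no methylation was measured here. Each is from RefSeq on GRCm38.p6, 5′ to 3′ on the strand of the gene (of Tap1 for the shared stretch). The windows are chr17:34000348-34000597 (minus strand) for H2-K1, chr17:35262844-35263093 (plus strand) for H2-D1, chr2:122147437-122147686 (plus strand) for B2m, chr17:34197945-34198194 (plus strand) for Psmb8 and chr17:34187331-34187555 for the stretch from Psmb9 to Tap1. H2-K1 has 2 listed starts, and the first was used. Capitals mark matches, on either strand, to the kappaB palindrome of enhancer A (the first capitals of the H2-K1 and H2-D1 lines), GTTTCACTT (core of the class I interferon response element), the interferon-stimulated response element (GAAA and GAAA with any 2 bases between, the first capitals of the B2m line), TTCNNNGAA (gamma-activated site), TGACG (core of the X2 box) and CCAAT (Y box).
H2-K1: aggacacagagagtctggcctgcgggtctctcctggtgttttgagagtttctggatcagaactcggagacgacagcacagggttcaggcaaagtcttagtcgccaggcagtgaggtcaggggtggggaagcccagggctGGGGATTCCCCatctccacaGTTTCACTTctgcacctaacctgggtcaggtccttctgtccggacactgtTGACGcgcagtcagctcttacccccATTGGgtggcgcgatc
H2-D1: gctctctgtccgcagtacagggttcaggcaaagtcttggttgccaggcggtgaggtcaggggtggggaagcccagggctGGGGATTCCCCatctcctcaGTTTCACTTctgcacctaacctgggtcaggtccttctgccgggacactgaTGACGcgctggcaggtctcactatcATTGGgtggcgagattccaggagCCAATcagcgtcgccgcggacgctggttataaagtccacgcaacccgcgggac
B2m: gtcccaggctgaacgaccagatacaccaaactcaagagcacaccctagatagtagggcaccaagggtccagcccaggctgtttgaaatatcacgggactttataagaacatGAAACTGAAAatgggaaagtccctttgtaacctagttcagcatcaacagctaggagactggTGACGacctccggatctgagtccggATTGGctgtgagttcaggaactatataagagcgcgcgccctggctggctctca
Psmb8: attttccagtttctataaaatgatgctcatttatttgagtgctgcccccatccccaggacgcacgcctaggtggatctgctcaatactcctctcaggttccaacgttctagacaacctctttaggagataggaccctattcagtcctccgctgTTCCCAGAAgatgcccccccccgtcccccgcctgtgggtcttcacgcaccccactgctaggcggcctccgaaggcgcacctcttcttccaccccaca
Psmb9 to Tap1: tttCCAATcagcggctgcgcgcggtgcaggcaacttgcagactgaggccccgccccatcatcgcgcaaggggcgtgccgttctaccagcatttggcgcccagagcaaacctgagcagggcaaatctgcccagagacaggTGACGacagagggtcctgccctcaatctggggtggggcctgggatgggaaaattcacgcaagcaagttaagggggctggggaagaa

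A promoter window was found for 8 of the 9 genes, all but Tap2. The 2 heavy-chain promoters share 166 of 190 aligned bases (87.4%) at an ungapped shift of 60 bases, and only these 2 of the 8 windows hold the kappaB palindrome and, just after it, the interferon element core. Among 27025 promoter windows of 250 bases, 0.0222% hold the palindrome and 0.352% hold GTTTCACTT. B2m is the only one of the 8 with the interferon-stimulated element (3.04% of all windows), and Psmb8 the only one with TTCNNNGAA (7.18%). TGACG is in 5 of the 8 windows (17.9% of all) and CCAAT in 6 (34.5% of all). The Psmb9 and Tap1 windows share 225 bases on opposite strands, so their single TGACG and single CCAAT are each counted for both genes. Psmb10 has none of the 6. CpG counts in 250 bases were 3 for Psmb10, 8 for B2m, 9 for H2-K1, 10 for Psmb8 and Tapbp, 12 for Psmb9 and 14 for H2-D1 and Tap1, against a median of 6 over all windows. The motifs were chosen after the sequences had been seen, no matches overlap in the printed sequences, and a match is letters only, not a shown binding site.

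The arrays were read on 2 scan days. Deficient iPSC, V6.5 ESC and MEF were on 6 arrays of the first day, and control lines and differentiating clones on 12 arrays of the second. Deficient iPSC and control lines therefore shared neither slide nor day, so the day of scanning cannot be told apart from the group in that comparison, nor in that of the differentiating clones with deficient iPSC. Differentiating clones and control lines met on the same arrays, as did deficient iPSC and each reference RNA. A channel of the earlier arrays had 69.69% to 78.87% of its probes well above background and a median net signal of 122.9 to 264.4. The later arrays had 75.58% to 92.55% and 88.62 to 312.6, and 0 spots were saturated. The main Dnmt3a probe read 8.96 to 9.85 in deficient iPSC and 9.12 to 9.59 in differentiating clones, below the 10.53 to 11.35 of control lines. The Dnmt3b probe read 12.33 to 13.49, 13.17 to 13.34 and 12.41 to 14.00 in the same order and overlapped; whether either probe lies in the deleted part is not given, so the labels are not checked by it. Levels here are log2 signals after normalization, 1 per line, averaged over its arrays, and differences are on the same log2 scale.

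Marker lists bore on the labels. The mean of 13 pluripotency markers was 13.96 to 14.31 in deficient iPSC, 13.41 to 13.68 in differentiating clones, 13.46 to 13.84 in control lines, 14.69 in V6.5 ESC and 10.06 in MEF. That of 15 endoderm markers was 9.22 to 10.88, 11.20 to 12.26, 9.07 to 10.17, 9.11 and 10.04 in the same order, with deficient clone 8 at the 10.88. Differentiating clones thus lay above all other RNAs in the mean of the endoderm markers. Of the 15 markers 14 were called higher than in deficient iPSC of the same clones, where 34.2% of all genes were. Ctsh, a lysosomal cathepsin, was higher by 3.24 ± 0.31, but its 13.23 to 13.95 in differentiating clones lay below the 14.12 of MEF. Against control lines, read on the same arrays, 7 of the 15 were called higher and 0 lower, where 2.28% and 2.47% of all genes were. The mean of 16 fibroblast and feeder markers was 10.37 to 10.41 in deficient iPSC, 10.47 to 10.99 in differentiating clones and 10.98 to 11.83 in control lines. It was 10.21 in V6.5 ESC and 14.88 in MEF. Of 16 class II and leukocyte markers, whose mean stayed between 8.09 and 8.50 in all RNAs, the pan-leukocyte gene Ptprc was not well above background in any channel of deficient iPSC, V6.5 ESC or MEF.

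Deficient iPSC against control lines is the comparison named by the design of the series. Of the 9 genes, 6 (H2-K1, H2-D1, B2m, Psmb8, Psmb9 and Tapbp) were called lower (adjusted p under 0.05 in limma, Benjamini-Hochberg over all genes), 0 higher and 3 (Psmb10, Tap1 and Tap2) neither, with a median difference of -0.67 over the 9. Of all genes 46.7% were called in this comparison and 31.9% were called lower, with a median difference of -0.07. In the same 6 genes every deficient clone lay below every control line, as in 35.6% of all genes. When arrays were not normalized to each other, all genes together had a median of 0.44, and 3 of the 9 were then called lower (H2-K1, B2m and Psmb8) and 2 higher (Tap1 and Tap2), where 19385 of all genes were called; relative to that median Tap1 stood at 0.10 and Tap2 at 0.14. In the differentiating clones 1 of the 9 genes was called lower than in control lines and 0 higher, with a median difference of -0.34, where 4.75% of all genes were called 2.28% higher and 2.47% lower. Psmb8 was the gene whose differentiating clones all lay below the control lines, as in 9.7% of all genes, and in 0 of the 9 did they all lie above, as in 9.98%.

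**Figure D1:**
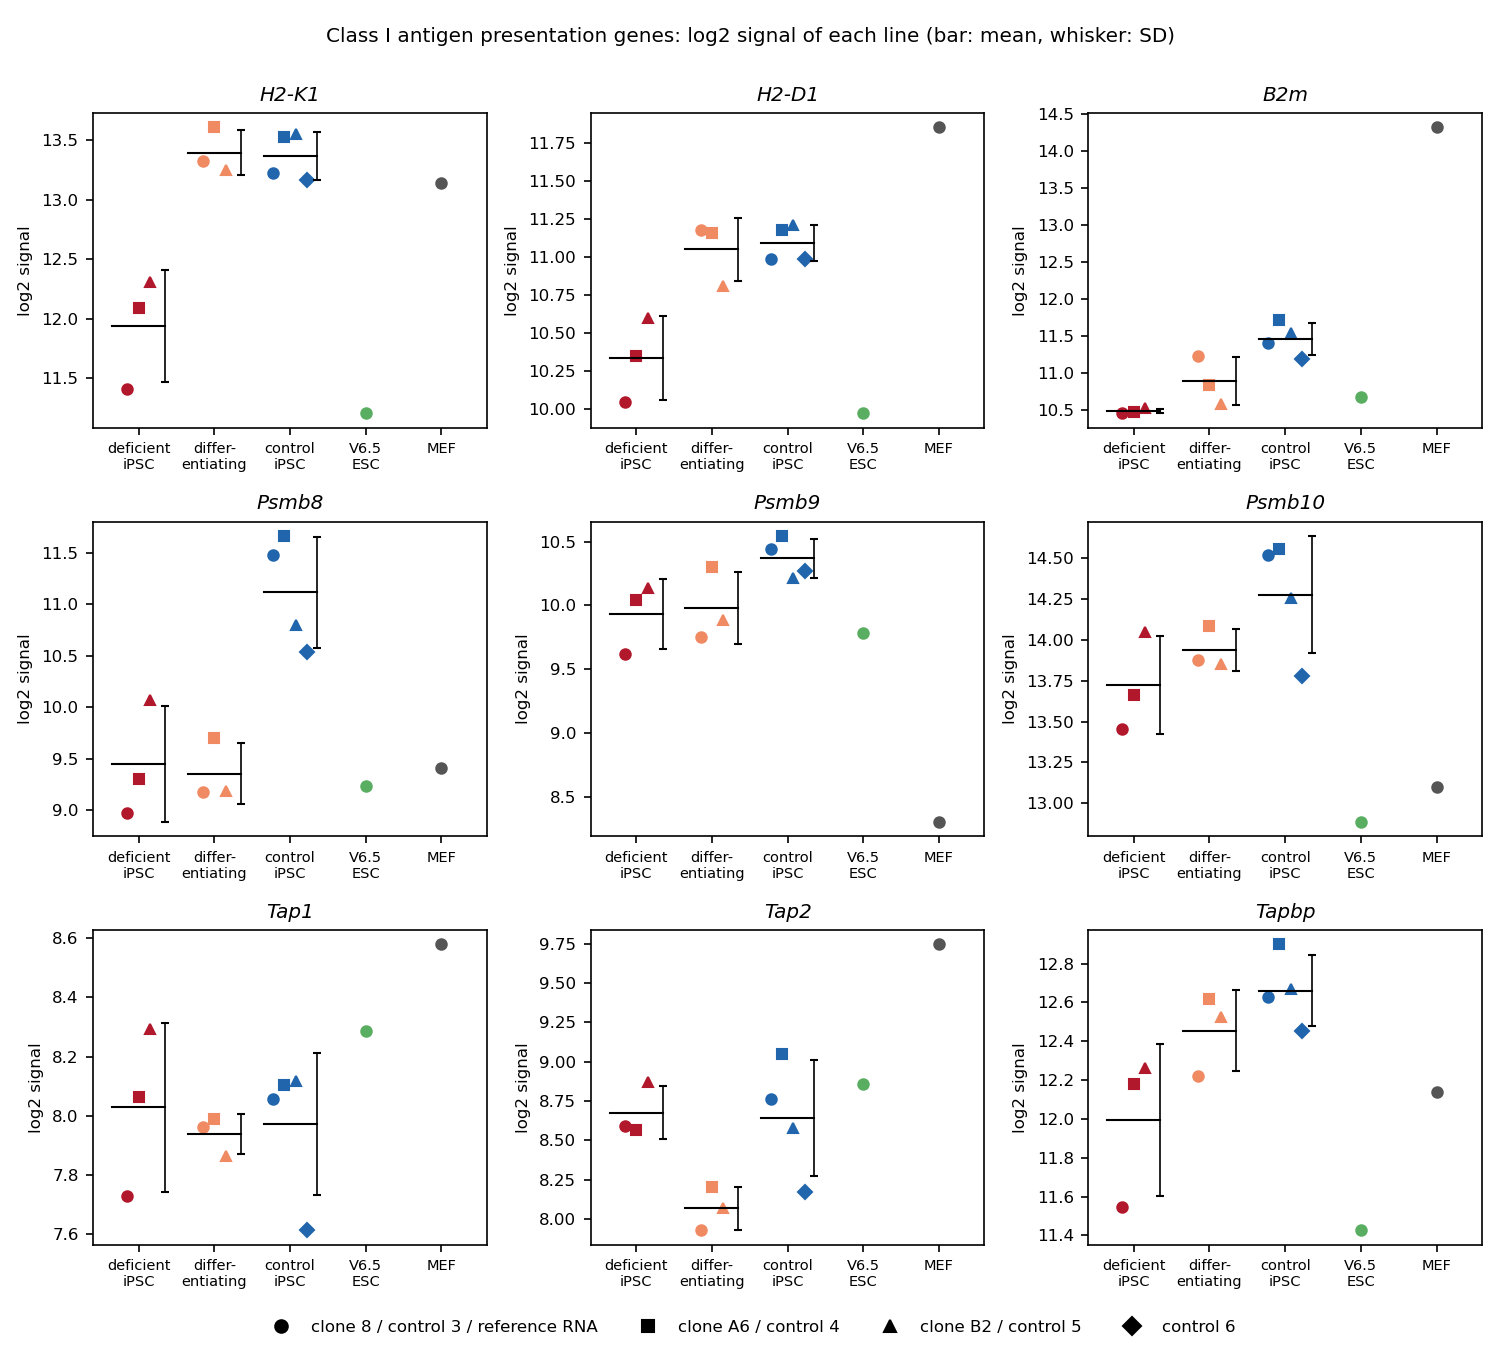
Normalized log2 signal (vertical axis, a different range in each panel) of the 9 genes in each of 12 RNAs: 3 deficient iPSC clones, the same 3 clones differentiating, 4 control lines, V6.5 ESC and MEF. Points are lines, horizontal bars are group means and whiskers are SD; H2-K1 of the differentiating clones lies at the level of control lines, and Psmb8 of all 6 deficient and differentiating values lies below the 4 control lines.

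The heavy chain H2-K1, which binds and displays the peptide, read 11.41, 12.09 and 12.31 in deficient clones 8, A6 and B2, against 13.22, 13.53, 13.55 and 13.17 in control lines 3, 4, 5 and 6. No deficient clone reached the lowest control line, and the difference was -1.43 ± 0.22 (SE; adjusted p = 0.00266 in limma), or 2.70-fold lower. H2-D1, the second classical heavy chain, read 10.05, 10.35 and 10.60 in the deficient clones and 10.99, 11.18, 11.21 and 10.99 in the control lines. It too was lower without overlap, by -0.76 ± 0.13 (adjusted p = 0.00428), or 1.69-fold. The shared light chain B2m read 10.47, 10.48 and 10.53 in the deficient clones, against 11.41, 11.71, 11.54 and 11.19 in the control lines. The 3 clones were close to each other and below every control line, and the difference was -0.97 ± 0.12 (adjusted p = 0.000896), or 1.96-fold lower.

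The differentiating clones carried heavy chains close to the level of control lines. H2-K1 read 13.33, 13.61 and 13.25 in differentiating clones 8, A6 and B2, and the difference from control lines was 0.03 ± 0.13 (adjusted p = 0.957 in limma). H2-D1 read 11.18, 11.16 and 10.81, a difference of -0.04 ± 0.11 (adjusted p = 0.915). B2m was at 11.23, 10.85 and 10.59, with clones A6 and B2 below all control lines and clone 8 just above control line 6. Its difference of -0.57 ± 0.18 did not pass (adjusted p = 0.123).

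Within clones, the heavy chains were higher in the differentiating state, in each of the 3 clones. H2-K1 differed by 1.46 ± 0.20 (adjusted p = 0.00822 in limma over 3 pairs), or 2.75-fold, and H2-D1 by 0.72 ± 0.19 (adjusted p = 0.0385), or 1.64-fold. The other H2-K1 probes gave 0.40 and 0.14 and the mean of all its probes 0.67 (adjusted p = 0.0217), and the H2-D1 call was lost without clone 8 (0.51, adjusted p = 0.0508). B2m, at 0.40 ± 0.15, did not pass (adjusted p = 0.084). Among the 9 genes 3 were called higher and 1 lower here, with a median of 0.22, while 52.9% of all genes were called, 34.2% higher and 18.7% lower, with a median of 0.08. All differentiating values lay above all deficient ones for 3 of the 9 (H2-K1, H2-D1 and B2m), as for 41.4% of all genes, and below them for 1 (Tap2), as for 21%. With no normalization between arrays, where the median of all genes was -0.44, 1 was called higher (H2-K1) and 3 lower (Psmb9, Tap1 and Tap2), among 20401 of all genes. Relative to that median, Psmb9 stood at 0.052, Tap1 at -0.13 and Tap2 at -0.72. Without clone A6 no gene of the 9, and 0 of all genes, passed in limma over the 2 remaining pairs.

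Both reference RNAs set a scale for these chains. V6.5 ESC had H2-K1 at 11.21 and H2-D1 at 9.97, below every deficient clone. The differences of deficient iPSC from V6.5 ESC were 0.73 ± 0.044 and 0.37 ± 0.049 (adjusted p = 9.24e-06 and 0.000567 in limma). B2m ran the other way, at 10.68 in V6.5 ESC, and was called lower in deficient iPSC by -0.27 ± 0.080 (adjusted p = 0.0406), a call lost with the mean of all probes (-0.15) and without clone 8 (-0.16) or B2 (-0.32). MEF had 13.14, 11.86 and 14.32 of H2-K1, H2-D1 and B2m. Deficient iPSC were lower than MEF by -1.20 ± 0.044, -1.53 ± 0.049 and -3.75 ± 0.080 (adjusted p from 5.66e-11 to 2.07e-09), which for B2m is 13.4-fold. For B2m the mean of control lines, 11.46, was also far below MEF, whereas for H2-K1 their mean of 13.37 was above it. That order for H2-K1 holds for the probe used here, and both other H2-K1 probes had MEF above every control line.

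These reference contrasts rest on 3 arrays each, with V6.5 ESC always in Cy5 and MEF always in Cy3. They thus take their dye term from the other arrays, since dye and reference cannot be told apart on their own. Their SE pools the spread that is left over all 18 arrays after a term for each line. It holds nothing of the spread between the 3 clones or of the reference RNA itself. Their p-values are therefore too small for a statement about such clones or reference cells in general. On the 3 arrays themselves, with no dye term, H2-K1 of the clones over V6.5 ESC ran from 0.36 to 1.29 (mean 0.94, SD 0.51). In limma on the 3 V6.5 ESC arrays alone, none of the 9 genes and 0 of all genes passed. Against V6.5 ESC, 4 of the 9 genes were called higher and 2 lower, where 19% of all genes were called, 12.5% higher and 6.44% lower. Against MEF, 2 were called higher and 5 lower, where 63.1% of all genes were called, 31% higher and 32.1% lower.

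**Figure D2:**
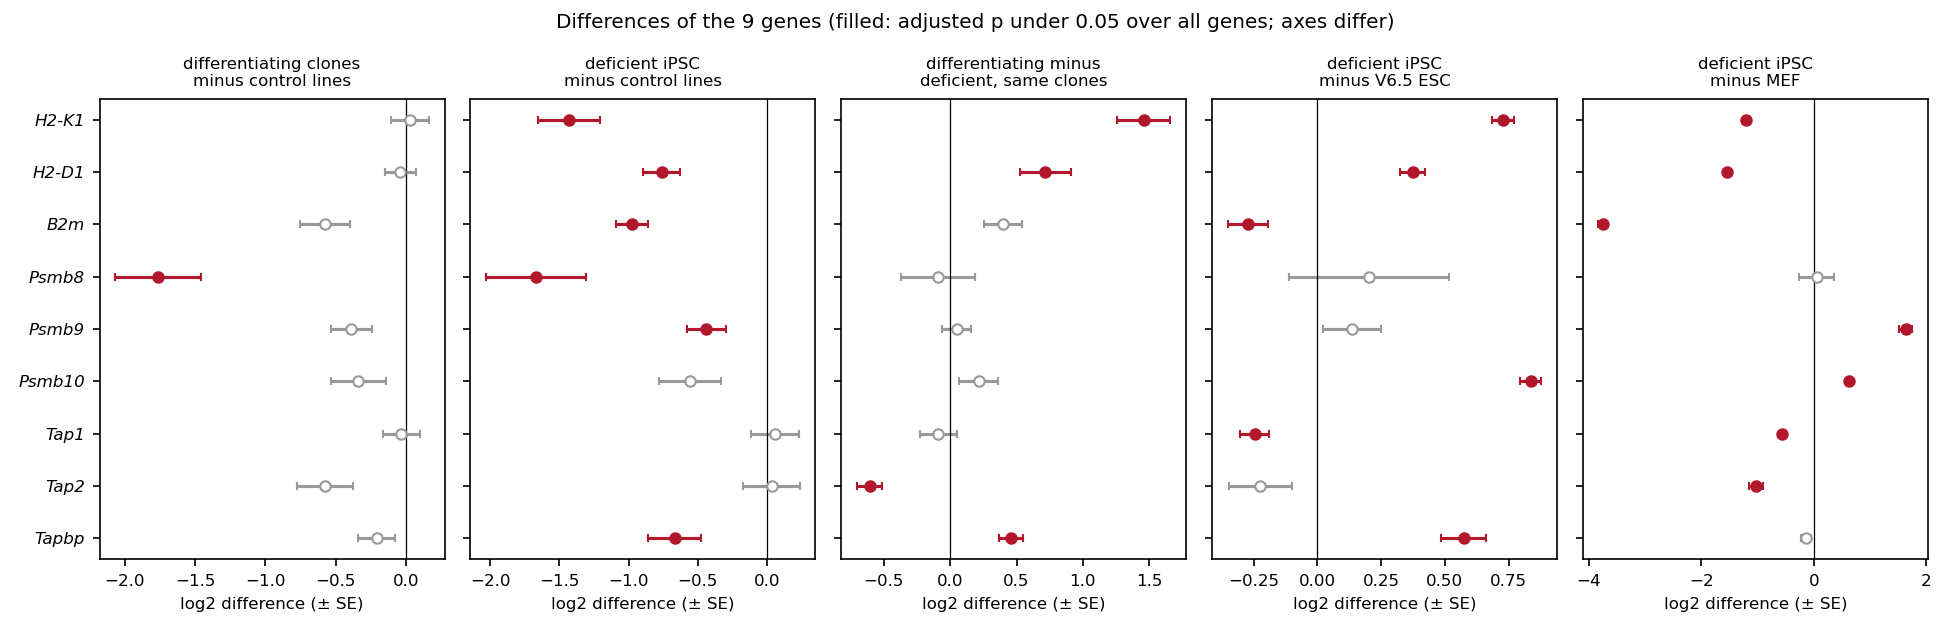
Log2 differences with SE (horizontal axes, which differ between panels) of the 9 genes in the 5 comparisons; a positive value is higher in the group named first, and filled points have an adjusted p under 0.05 over all genes. Psmb8 lies at -1.76 in the differentiating clones and at -1.67 in deficient iPSC against control lines, while H2-K1 lies at 0.03 and at -1.43.

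The immunoproteasome subunit Psmb8, the inducible stand-in for the catalytic subunit Psmb5, was the member with the largest difference from control lines in both states of the clones. It read 8.98, 9.30 and 10.07 in deficient clones 8, A6 and B2 and 9.18, 9.70 and 9.19 in the same clones differentiating, against 11.47, 11.66, 10.80 and 10.53 in control lines 3 to 6. No value of a clone in either state reached the lowest control line. Psmb8 was lower by -1.67 ± 0.36 in deficient iPSC (adjusted p = 0.00982 in limma, 3.18-fold) and by -1.76 ± 0.31 in differentiating clones (adjusted p = 0.0356, 3.39-fold). Between the states it differed by -0.09 ± 0.28 (adjusted p = 0.793).

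The Psmb8 deficit of the differentiating clones could also be read within arrays, where clone and control line share slide and scan day. On 12 of 12 arrays the clone gave less signal than the control line beside it, with ratios from -2.77 to -0.50 and a mean of -1.67 ± 0.70 (SD, n = 12). The mean was -1.85 for clone 8, -1.33 for clone A6 and -1.83 for clone B2, over 4 arrays each, every clone being on its own slide. Against control lines 3, 4, 5 and 6 it was -1.95, -2.28, -1.29 and -1.17, over 3 arrays each. Lines 3 and 4 were thus the farther from the clones, and lines 5 and 6 the nearer. These ratios carry no dye term, though the clone was in Cy3 on 9 of the 12 arrays and control line 3 in Cy5 on all 3 of its arrays. The levels from the fit with a dye term, 11.47 and 11.66 against 10.80 and 10.53, had the same order of control lines.

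The call rests on few lines. Psmb8 kept its sign under all 18 alternatives, from -1.97 to -1.58, and was called lower in 13 of them. Leaving out control line 3 or 4 or any 1 of the 3 clones left 0 of the 9 genes called, and leaving out control line 6 gave 3 called. Of all genes those fits called 1 without control line 3, 28 without line 4, 0 without clone A6 or B2 and 1044 without clone 8, against 3496 without line 6. A fit of the 12 within-array ratios, whose error is that between arrays and not that between lines, called 6 genes lower (B2m, Psmb8, Psmb9, Psmb10, Tap2 and Tapbp) and 0 higher; it called 11673 of all genes, against 1185 over lines.

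**Figure D3:**
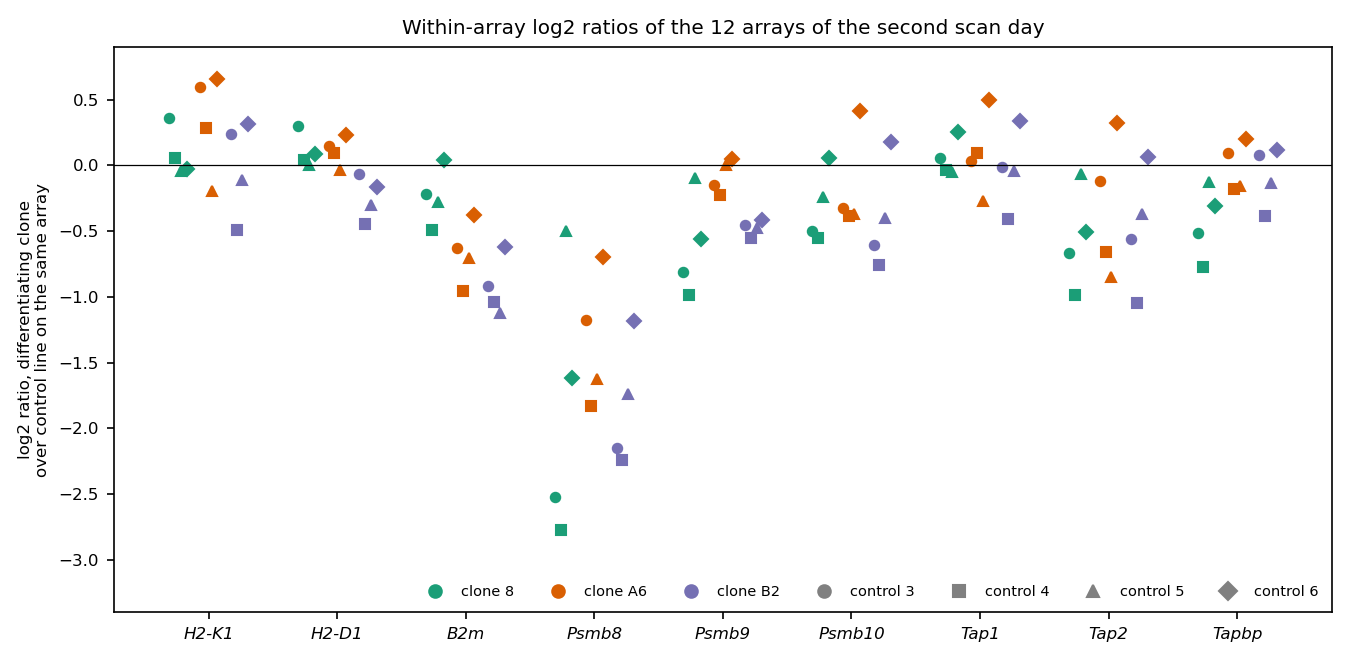
Log2 ratio of a differentiating clone over the control line on the same array (vertical axis) for the 9 genes on the 12 arrays of the second scan day; colours are clones and shapes are control lines. All 12 Psmb8 ratios are below 0, from -2.77 to -0.50, while those of H2-K1 and H2-D1 lie on both sides of 0.

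Psmb9, which takes the place of Psmb6, showed a smaller difference. It read 9.62, 10.04 and 10.13 in the deficient clones and 9.75, 10.30 and 9.89 in the differentiating ones, against 10.44, 10.55, 10.22 and 10.27 in control lines 3 to 6. Deficient clones lay below control lines without overlap (-0.44 ± 0.14, adjusted p = 0.0424 in limma). This call was lost with no normalization between arrays (-0.0048), with slide within scan day (adjusted p = 0.0655) and on leaving out clone 8 or A6 or control line 3, 4 or 5 (adjusted p from 0.0513 to 0.0995). In the other state differentiating clone A6 lay among the control lines (-0.39 ± 0.15, adjusted p = 0.187). Psmb10, which takes the place of Psmb7, read 13.46, 13.66 and 14.05 in deficient clones and 13.88, 14.09 and 13.85 in differentiating clones. In control lines it read 14.52, 14.56, 14.26 and 13.78, so line 6 overlapped both states of the clones. Neither of its differences from control lines passed, at -0.55 ± 0.22 in deficient iPSC (adjusted p = 0.0842) and -0.34 ± 0.20 in differentiating clones (adjusted p = 0.408).

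The reference RNAs did not order the 3 inducible subunits alike. V6.5 ESC had Psmb8 at 9.24 and Psmb9 at 9.79, inside the range of the deficient clones, but Psmb10 at 12.89, below all of them. Psmb10 was called higher in deficient iPSC than in V6.5 ESC by 0.84 ± 0.041 (adjusted p = 3.32e-06 in limma). MEF had Psmb8 at 9.41, within the range of the deficient clones (0.05 ± 0.31, adjusted p = 0.904), and Psmb9 at 8.30, the lowest of the 12 RNAs. Deficient iPSC exceeded MEF in Psmb9 by 1.63 ± 0.11 (adjusted p = 3.47e-07), or 3.10-fold, and in Psmb10 by 0.62 ± 0.041 (adjusted p = 2.23e-07). Psmb8, Psmb9 and Psmb10 were thus all lower in MEF than in the mean of control lines (11.12, 10.37 and 14.28), as levels read on different days.

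The constitutive subunits that these 3 replace showed small differences. Psmb5 differed from control lines by -0.08 ± 0.049 in deficient iPSC and by -0.07 ± 0.063 in differentiating clones (adjusted p = 0.222 and 0.657 in limma). Psmb6 differed by -0.10 ± 0.079 and 0.12 ± 0.069, and Psmb7 by 0.05 ± 0.050 and -0.04 ± 0.052, none of which passed. Of the 14 constitutive 20S subunits, 2 were called higher in deficient iPSC than in control lines (largest Psma4, an alpha ring subunit, 0.58 ± 0.059) and 2 lower (largest Psmb3, a beta ring subunit, -0.20 ± 0.041). In the differentiating clones 0 of the 14 passed, with a median of -0.01. Within clones, Psmb6 was higher in the differentiating state by 0.23 ± 0.039 (adjusted p = 0.0138) and Psma4 lower by -0.53 ± 0.037 (adjusted p = 0.00381), 2 being called higher and 2 lower in all. Against MEF 12 of the 14 were higher in deficient iPSC (largest Psma5, 0.64 ± 0.050), among them Psmb5, Psmb6 and Psmb7 at 0.16 ± 0.037, 0.38 ± 0.037 and 0.54 ± 0.040, and 1 was lower (Psmb1, -0.32 ± 0.036). Against V6.5 ESC 2 were higher (largest Psma5, 0.22 ± 0.050) and 0 lower. The shares of all genes called higher and lower were 14.7% and 31.9% in deficient iPSC against control lines and 34.2% and 18.7% within clones. They were 2.28% and 2.47% in differentiating clones against control lines, 12.5% and 6.44% against V6.5 ESC and 31% and 32.1% against MEF.

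Of the transport and loading genes, tapasin was lower in deficient iPSC, as the heavy chains were. Tapbp read 11.55, 12.18 and 12.26 in the deficient clones, 12.22, 12.62 and 12.52 in the same clones differentiating, and 12.63, 12.90, 12.67 and 12.45 in control lines 3 to 6. It was lower in deficient iPSC than in control lines without overlap (-0.67 ± 0.19, adjusted p = 0.0279 in limma). The call was lost with the mean of its probes (-0.27, adjusted p = 0.0945), with no normalization between arrays (-0.31, adjusted p = 0.181) and without control line 3, 4 or 5 (adjusted p = 0.0597, 0.0690 and 0.0607). It was higher in the differentiating than in the deficient state of the same clones by 0.46 ± 0.091 (adjusted p = 0.0188). Its second probe gave -0.24 there, and the call was lost with the mean of both probes (0.11, adjusted p = 0.238), with processed signals (0.32), with no normalization between arrays (0.10) and without clone pairing (adjusted p = 0.121). Differentiating clones overlapped control lines (-0.21 ± 0.13, adjusted p = 0.466). V6.5 ESC, at 11.43, was below all 3 deficient clones (0.57 ± 0.089, adjusted p = 0.00153), and MEF, at 12.14, lay among them (-0.15 ± 0.089, adjusted p = 0.181).

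The transporter genes had a different pattern. Tap1 read 7.73, 8.06 and 8.29 in deficient clones and 7.96, 7.99 and 7.86 in differentiating clones, against 8.06, 8.10, 8.12 and 7.61 in control lines 3 to 6. Both groups of clones overlapped the control lines, with differences of 0.06 ± 0.17 and -0.03 ± 0.13 (adjusted p = 0.812 and 0.950 in limma). Tap2 read 8.59, 8.57 and 8.87 in deficient clones and 7.93, 8.20 and 8.07 in differentiating clones, against 8.77, 9.05, 8.58 and 8.17 in control lines. Deficient iPSC were level with control lines in Tap2 on average (0.03 ± 0.20, adjusted p = 0.906). Each clone had less Tap2 in the differentiating state (-0.61 ± 0.097, adjusted p = 0.0112), the only called fall among the 9 genes within clones under the normalization used here, while against control lines the -0.57 ± 0.20 of differentiating clones did not pass (adjusted p = 0.160).

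Both transporter genes were highest in MEF. Tap1 read 8.58 in MEF and 8.29 in V6.5 ESC, and Tap2 read 9.75 and 8.86 in the same order. Deficient iPSC were lower than MEF by -0.56 ± 0.056 in Tap1 and by -1.02 ± 0.12 in Tap2 (adjusted p = 6.38e-06 and 2.84e-05 in limma). Against V6.5 ESC Tap1 was called lower by -0.25 ± 0.056 (adjusted p = 0.0125; -0.11 and not called without a dye term or without clone 8), though clone B2 was level with it, and Tap2 at -0.22 ± 0.12 did not pass (adjusted p = 0.265). Psmb9 and Tap1, whose starts face each other across the 225 bases printed above, thus stood in different order: Psmb9 was lowest in MEF and Tap1 highest there.

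Probes of the same gene did not always give the same size of difference. Psmb8 has 2 probes, on mm7 at chr17:32280725-32281049 and chr17:32280668-32280727, and they differed from control lines by -1.76 and -1.52 in differentiating clones and by -1.67 and -1.44 in deficient iPSC. H2-K1 was taken from the probe with 10 spots per array (chr17:32074445-32074504), whose ratios varied between spots of an array with a median SD of 0.044. Its other probes, at chr17:32077868-32078115 and chr17:32077678-32077737, gave -0.58 and -0.28 in deficient iPSC against control lines, where the first gave -1.43. B2m gave -0.97 from its brightest probe (chr2:121893518-121893577) and -1.30 from another with 10 spots (chr2:121893642-121893698). The third B2m probe, at chr2:121889716-121889775, was not well above background in any of the 6 channels of deficient iPSC.

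The second probes of H2-D1 and Tapbp went against the first. For H2-D1 the probe at chr17:33361850-33362082, used here, gave -0.76 in deficient iPSC against control lines and, as a difference of line levels, -1.52 against MEF. The other, at chr17:34358688-34358747 and designed on another accession, gave -0.05 and 0.53. For Tapbp the probe used (chr17:32007107-32007166) gave -0.67 against control lines and the other (chr17:32004181-32004240) gave 0.13. Class I heavy chains are near copies of each other, so the share of signal that each H2-K1 or H2-D1 probe takes from related genes is uncertain, and which exon a probe lies in is not given in the files.

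The order of lines differed between the states of the clones. In deficient iPSC, clone B2 was the highest in 9 of the 9 genes and clone 8 the lowest in 8, against 30.9% and 46.3% of all genes; clone 8 was alone on its slide. In the differentiating state A6 was the highest in 7 of the 9 and B2 in 0, against 28.3% and 30.6% of all genes. There B2 was the lowest in 5 and clone 8 in 4, against 35.2% and 37.2% of all genes. In control lines, line 6 was the lowest in 7 of the 9 and line 4 the highest in 6, against 36% and 17.6% of all genes. Averaged over the 9 genes, deficient clones 8, A6 and B2 stood at 10.20, 10.53 and 10.79, the same clones differentiating at 10.74, 10.95 and 10.67, and control lines 3, 4, 5 and 6 at 11.28, 11.47, 11.22 and 10.91. Across the 10 iPSC values (3 deficient, 3 differentiating, 4 control), Psmb10 ran closest to the mean of the other 8 genes (Pearson r = 0.94), and Tap1 and Tap2 least so (0.36 and 0.29). These values share arrays and fall into 3 groups, so the coefficients describe them only.

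Feeder markers moved with the class I genes among the control lines. The fibroblast and feeder list averaged 11.53, 11.83, 11.51 and 10.98 in control lines 3, 4, 5 and 6, so the line highest in class I genes was also highest in these markers, and the lowest the lowest. In deficient clones 8, A6 and B2 it averaged 10.40, 10.37 and 10.41, which is not the order of their class I means. In the same clones differentiating it averaged 10.99, 10.70 and 10.47, which again is not the order of the class I means. Of its 16 genes 11 were called lower in deficient iPSC than in control lines and 0 higher (S100a4, a calcium-binding protein of mesenchymal cells, -2.31 ± 0.23, adjusted p = 0.000494 in limma), and in differentiating clones 3 lower and 0 higher (Col3a1, a fibrillar collagen, -1.62 ± 0.29, adjusted p = 0.0380). Their median differences were -1.22 and -0.85, against -0.07 and 0.00 over all genes. In deficient iPSC 14.7% of all genes were called higher than in control lines and 31.9% lower, and in differentiating clones 2.28% and 2.47%. In bulk RNA fewer cells of a kind and less RNA per cell cannot be told apart, and the part of feeder cells in the class I differences was not tested. By the probe used for each gene, MEF RNA, read on the other scan day, lay above every control line in H2-D1, B2m, Tap1 and Tap2. The second H2-D1 probe instead had MEF at 7.60, below the 8.11 to 8.23 of control lines. By the same choice of probes MEF lay below every control line in H2-K1, Psmb8, Psmb9, Psmb10 and Tapbp. Both other H2-K1 probes instead had MEF above every control line (10.67 against 9.94 to 10.14, and 9.93 against 9.46 to 9.65). The second Tapbp probe had MEF among the control lines. Lyz2, a macrophage lysozyme, was lower in both states of the clones (-1.98 ± 0.16 and -1.65 ± 0.17), while H2-DMb1, a class II peptide loading chain, was higher in both (0.97 ± 0.10 and 1.33 ± 0.23). Of the 16 class II and leukocyte markers 3 were called higher and 7 lower in deficient iPSC and 2 and 2 in differentiating clones.

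**Figure D4:**
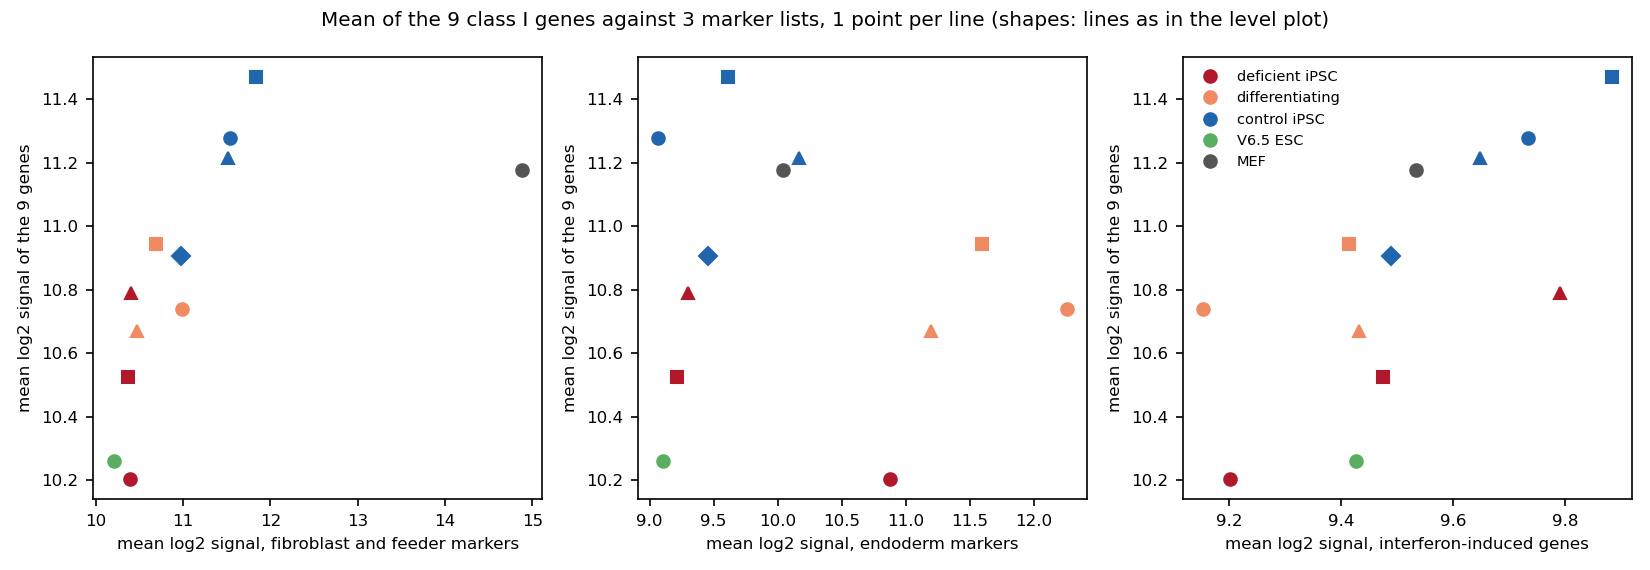
Mean log2 signal of the 9 class I genes (vertical axes) against that of the fibroblast and feeder list, the endoderm list and the interferon-induced list (horizontal axes), 1 point per RNA, coloured by kind and shaped by line as in the plot of levels. Control line 4 is highest and control line 6 lowest of the control lines in class I genes, in feeder markers and in interferon-induced genes; differentiating clones stand apart in endoderm markers.

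Interferon-induced genes were called in both directions in most comparisons. Of 20 such genes 4 were called lower in differentiating clones than in control lines and 0 higher, where 2.47% of all genes were called lower, with a median of -0.21; Gbp3, a guanylate-binding GTPase of host defence, was lower by -1.64 ± 0.34 (adjusted p = 0.0492 in limma). In deficient iPSC 2 were higher, with Rsad2, the antiviral viperin, at 0.81 ± 0.11, and 2 lower, with Usp18, which removes ISG15 from proteins, at -0.32 ± 0.089, and the median was -0.20. Within clones 1 was higher in the differentiating state (Bst2, the virus-tethering protein tetherin, 0.97 ± 0.12) and 5 lower (Irgm1, an immunity-related GTPase, -1.37 ± 0.20). Against V6.5 ESC 1 was higher (Ifitm3, 0.37 ± 0.078) and 1 lower (Ifitm2, -0.41 ± 0.036), both being antiviral membrane proteins. Against MEF 7 were higher, with Ifitm1 of the same family at 2.37 ± 0.052, and 10 lower, with Ifit2, an RNA-binding antiviral protein, at -1.87 ± 0.062. The list averaged 9.20, 9.47 and 9.79 in deficient clones 8, A6 and B2, in the order of their class I means, and 9.15, 9.41 and 9.43 in the same clones differentiating, which is not that order. In control lines 3 to 6 it averaged 9.73, 9.88, 9.65 and 9.49. The shares of all genes called higher and lower were 14.7% and 31.9% in deficient iPSC against control lines and 34.2% and 18.7% within clones. They were 12.5% and 6.44% against V6.5 ESC and 31% and 32.1% against MEF.

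Regulators of class I transcription had calls in both directions. Nlrc5, the class I transactivator, was not analysed here. Irf1, an interferon-induced activator of Psmb9 and Tap1, read 13.59, 14.02 and 14.50 in deficient clones and 12.45, 13.19 and 13.51 in differentiating clones, against 13.90, 14.16, 13.67 and 13.50 in control lines 3 to 6. It was not called in deficient iPSC (0.23 ± 0.24, adjusted p = 0.473 in limma) or differentiating clones (-0.76 ± 0.27, adjusted p = 0.175) against control lines. Within clones it was lower in the differentiating state, by -0.99 ± 0.072 (adjusted p = 0.00381). Of the 23 measured genes of this list, 1 was higher in deficient iPSC than in control lines (Nfya, a subunit of the Y box factor, 0.33 ± 0.061) and 7 lower (Ifngr2, a chain of the interferon gamma receptor, -0.83 ± 0.079), with a median of -0.02. In differentiating clones 1 was higher than in control lines (Ifnar2, a chain of the type I interferon receptor, 0.40 ± 0.084) and 0 lower. Within clones 10 were higher in the differentiating state, with the kinase Jak2 at 0.91 ± 0.074, and 4 lower. The shares of all genes called higher and lower were 14.7% and 31.9% in deficient iPSC against control lines and 34.2% and 18.7% within clones. In differentiating clones against control lines they were 2.28% and 2.47%.

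Against the reference RNAs, Irf1 was higher in deficient iPSC than in MEF by 2.02 ± 0.22 (adjusted p = 1.12e-05 in limma) and stood at 0.66 ± 0.22 against V6.5 ESC, not called (adjusted p = 0.0611). Against MEF 6 of the 23 were higher and 11 lower, Ifngr2 by -3.58 ± 0.043. Against V6.5 ESC 3 were higher (Socs1, which restrains cytokine signalling, 0.32 ± 0.074) and 2 lower (the kinase Jak1, -0.37 ± 0.065). Of all genes 31% were called higher and 32.1% lower against MEF, and 12.5% and 6.44% against V6.5 ESC.

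The partners of loading and trimming showed a gene that went with Psmb8. Erap1, the aminopeptidase that trims peptides to class I length, read 8.48, 8.91 and 9.37 in deficient clones and 8.56, 9.23 and 8.84 in differentiating clones, against 10.098, 10.25, 9.71 and 9.63 in control lines 3 to 6. It lay below all control lines in both states, by -1.0 ± 0.24 in deficient iPSC (adjusted p = 0.0147 in limma) and -1.04 ± 0.21 in differentiating clones (adjusted p = 0.0477). Of the 12 measured partners 6 were lower and 0 higher in deficient iPSC than in control lines (median -0.22), and 2 lower and 0 higher in differentiating clones (median 0.15). Within clones 8 were higher in the differentiating state and 0 lower, with Pdia3, the disulphide isomerase of the loading complex, at 0.79 ± 0.082 (adjusted p = 0.00502). Against MEF 10 were lower in deficient iPSC (Pdia3, -1.83 ± 0.10) and 2 higher (Psme1, a proteasome activator subunit, 0.34 ± 0.071). Against V6.5 ESC 1 was higher (Lnpep, an endosomal aminopeptidase, 0.22 ± 0.049) and 1 lower (Psme3, another proteasome activator, -0.31 ± 0.059). The shares of all genes called higher and lower were 14.7% and 31.9% in deficient iPSC against control lines and 34.2% and 18.7% within clones. They were 2.28% and 2.47% in differentiating clones against control lines, 12.5% and 6.44% against V6.5 ESC and 31% and 32.1% against MEF.

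Other class I and class I-like genes split. Of 19 measured, 4 were higher in deficient iPSC than in control lines and 7 lower, where 14.7% and 31.9% of all genes were. Fcgrt, the neonatal Fc receptor chain, was higher by 1.17 ± 0.061 (adjusted p = 0.000152 in limma). The non-classical H2-T10 was lower by -0.93 ± 0.26 (adjusted p = 0.0272 in limma). The median of the 19 genes was -0.07, and that of all genes was -0.07 too. In differentiating clones 1 was higher than in control lines (Cd1d1, which presents lipids, 0.61 ± 0.082, adjusted p = 0.0280) and 0 lower. Within clones 3 were higher in the differentiating state (Procr, the endothelial protein C receptor, 1.26 ± 0.11) and 3 lower (H2-Bl, -0.85 ± 0.22). Against V6.5 ESC 7 were higher, with H2-Q10, a secreted class I chain, at 0.62 ± 0.045, and 0 lower. Against MEF 13 were lower (Procr, -2.10 ± 0.12) and 3 higher; H2-Bl, which was not well above background in MEF, was at least 8.66-fold higher in deficient iPSC (adjusted p = 8.08e-10; measured means 10.03 and 6.90). That bound sets the mean of the clones against the dimmest signals well above background on the same MEF channels. The shares of all genes called higher and lower were 2.28% and 2.47% in differentiating clones against control lines and 34.2% and 18.7% within clones. They were 12.5% and 6.44% against V6.5 ESC and 31% and 32.1% against MEF.

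The 6 genes outside the pathway whose values ran most like the mean of the 9 over the 10 iPSC values were Mal2 (Pearson r = 0.98), Wnt9a (0.98), Cd274 (0.97), Dpt (0.97), Tspan12 (0.97) and Cacna2d1 (0.97). Cd274 encodes PD-L1, a ligand that restrains T cells, Wnt9a a secreted Wnt ligand and Dpt the matrix protein dermatopontin. Their means in deficient, differentiating and control iPSC were 7.94, 8.58 and 9.50 for Mal2 and 7.72, 7.79 and 8.11 for Cd274. They were picked as the best of all named genes, so the coefficients are a description with no test.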

How the data were processed

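RNA was labelled and hybridised to 2-colour Agilent arrays, and the deposited scanner files hold the mean and background intensity of each spot in both channels, per the file headers. The deposited value table holds a log2 ratio per probe and array made by the authors; its array medians ran from -0.0106 to 0.0071, the steps behind it are not given in the sources used here, its direction was taken from its match to the scanner ratios, and it served as an alternative only. The submitters' processing notes name limma with no version.

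From the intensities, background was corrected with normexp (offset 50), arrays were normalized within by loess and between by Aquantile in limma 3.58.1 (R 4.3.3), and spots of a probe were averaged. Probes were kept if well above background in at least a share of 0.5 of the channels of a kind of RNA, and the brightest kept probe stood for a gene. Names came from accessions for 14241 genes, symbols for 3036, synonyms for 1473 and the files alone for 6219. A separate-channel fit (intra-spot correlation 0.812, 12 terms for line and state, and dye) gave 1 log2 value per line and state. These were compared in limma over lines, paired by clone between states. Contrasts with V6.5 ESC and MEF came from a log-ratio fit of all 18 arrays with a dye term. P-values were adjusted by Benjamini-Hochberg over all genes, with a threshold of 0.05, and 2 genes with a missing line value were left out. The number of arrays limits the precision.

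The 9 genes and the other gene lists were chosen with earlier results of these data known. Where the text describes another list in a comparison, it names the called gene with the largest difference in each direction, except that for marker lists it may give counts and means alone, plus Nlrc5, Irf1, Psmb5, Psmb6 and Psmb7 throughout (a further gene of this rule is not reported here); outside the lists it names the 6 genes most like the mean of the 9, each centred on its own mean.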

Additional observations from a re-analysis of the deposited data

Results flagged for a closer look

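Tap1 in control line 6 read 7.61, apart from the 8.06 to 8.12 of the other 3 control lines. Its gap to the nearest line took a share of 0.88 of the range of the group, above the critical value for 4 samples; about 5% of groups pass it by chance, and of the 9 genes only Tap1 did so in the control lines.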

How the results depend on the processing

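Of 621 values of the 9 genes under 20 alternatives, 530 kept their direction and side of the threshold, 39 lost a call, 23 gained one and 29 changed sign. With the replicate block the calls numbered 1 in differentiating clones against control lines, 6 in deficient iPSC against control lines and 4 within clones, as without it; equal numbers did not deviate together (correlation -0.073), so they do not pair the samples. In differentiating clones against control lines, 1 gene was called, but 6 from the within-array log ratios and 6 from the deposited value table, whose errors are between arrays (11673 and 12853 of all genes, against 1185 over lines), and 0 to 3 on leaving out a line. Leaving out a line gave 4 to 7 calls in deficient iPSC against control lines (8965 to 13798 of all genes) and 0 to 5 within clones (0 to 14609). Against V6.5 ESC 6 were called, and 0 from its 3 arrays alone. Of the results that changed sign, Psmb9 within clones was the one called after it. With the mean of all probes, H2-K1 and H2-D1 in differentiating clones against control lines were -0.095 and 0.028. Without a dye term Tap1 there was 0.037, Tap2 against V6.5 ESC 0.036 and Psmb8 against MEF -0.14, the last pair also from the 3 arrays alone (0.036 and -0.14). With no normalization between arrays, B2m, Psmb9 and Psmb10 within clones were -0.077, -0.39 (adjusted p = 0.0301 in limma) and -0.070, against 0.40, 0.048 and 0.22; with slide within scan day, Psmb8 and Psmb9 there were 0.11 and -0.013. With processed signals Tapbp against MEF was 0.019. On leaving out a line, the range against control lines was -0.077 to 0.10 for H2-K1, -0.11 to 0.077 for H2-D1 and -0.15 to 0.014 for Tap1 in differentiating clones, and -0.077 to 0.21 for Tap1 and -0.12 to 0.17 for Tap2 in deficient iPSC. It was -0.34 to 0.30 for Psmb8, -0.056 to 0.20 for Psmb9 and -0.25 to 0.081 for Tap1 within clones, and -0.36 to 0.41 for Psmb8 and -0.30 to 0.063 for Tapbp against MEF. The cause of these changes was not tested.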
